A study of Rattus norvegicus with 24 samples.

Results

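Left ventricles of metformin-treated rats were compared between the third and the first day of dosing, with 4 hearts on each day, which is 8 of the 24 arrays of the series. The members were the arrays whose titles give 800 mg/kg metformin at day 3 or day 1, and all genes were examined. Metformin is a biguanide, taken by people with type 2 diabetes, that lowers glucose release by the liver. In muscle and heart it is known for a mild slowing of mitochondrial respiratory complex I and for activation of AMP-activated protein kinase, AMPK. The heart draws most of its energy from fatty acids and takes up glucose, lactate, ketone bodies and branched-chain amino acids in amounts that follow feeding and insulin, and many of its metabolic genes also follow the time of day through the circadian clock.

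The animals were male RccHan Wistar rats, an outbred stock, aged 7 to 8 weeks at the start. Treated rats received 800 mg/kg metformin by gavage on 1 day or on 3 consecutive days, and control rats received the vehicle alone, a mixture of ethanol, Kolliphor HS 15 and tap water, for as many days. Different animals were killed on each day, RNA of the left ventricular apex of each animal went on its own array, and 4 of the 5 animals per group that the design text gives are analysed here. Day 3 and day 1 hearts thus differ in the number of doses and in age by a few days, and the labels name no batch, hour of killing or interval since the last dose, so these cannot be told apart from the day. Values are log2 of the deposited normalised intensity, and a difference is day 3 minus day 1 on that log2 scale with n = 4 hearts per group.

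The 16 arrays of the day 1 and day 3 groups had log2 medians between 4.72 and 4.88 and correlated with the other arrays of their own group at a mean r between 0.987 and 0.991. Heart muscle was evident in all 8 metformin hearts from Myl2, ventricular myosin light chain, at 15.34 to 15.40, and from Tnni3, cardiac troponin I, at 13.39 to 13.44. Mb, myoglobin, lay at 19.93 in every metformin heart, which is the top of the scale, so that a change in it could not be seen. Metformin day 3 replicate 3 stood apart in Nppa, atrial natriuretic peptide, at 11.83 against 14.51 to 15.99 in the other 7 metformin hearts, and vehicle day 3 replicate 4 was as low at 11.79. Metformin day 3 replicate 4 stood apart in Sln, the atrial calcium pump inhibitor sarcolipin, at 10.59 against 6.03 to 7.99. Metformin day 3 replicate 1 had the lowest collagen, with Col1a1 at 11.88 against 12.90 to 13.37. Medians of gene lists that moved with one of these hearts are given with and without it.

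Between day 1 and day 3 of metformin, 2 of 16031 genes passed the test, which is 0.0125%, with Tubb4b higher and Adamts12 lower on day 3, 0.00624% in each direction. Differences were tested with limma over all genes, and a gene was called at a Benjamini-Hochberg adjusted p under 0.05. At an unadjusted p under 0.05 there were 1016 genes, or 6.34%, of which 465 were higher (2.9%) and 551 lower (3.44%) on day 3. In 637 genes, 3.97%, the 4 day 3 hearts did not overlap the 4 day 1 hearts, 303 of them higher (1.89%) and 334 lower (2.08%). The median difference over all genes was -0.0075, and 47.1% of genes lay above 0. The 95% confidence interval stayed within 1.5-fold of no difference in 89.1% of genes and within 2-fold in 98.7%. Only 75 genes had an estimated difference beyond 1.5-fold and 5 beyond 2-fold, so large shifts were rare in this comparison.

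Tubb4b encodes a beta-tubulin, one of the subunits from which microtubules are built, and is transcribed in most tissues. Its level was 13.15, 13.35, 13.46 and 13.48 in metformin day 1 replicates 1 to 4, and 13.93, 13.89, 13.86 and 14.09 in the day 3 hearts. All 4 day 3 hearts lay above all 4 day 1 hearts. The increase was 0.59 (SE 0.09, 95% confidence interval 0.39 to 0.78), a 1.5-fold rise with an adjusted p of 0.032 by limma. In vehicle hearts the level was 13.16, 13.10, 13.44 and 13.29 on day 1 and 13.22, 13.38, 13.34 and 13.33 on day 3, a difference of 0.07 (SE 0.09, adjusted p = 1.00). The vehicle groups overlapped. The metformin difference exceeded the vehicle difference by 0.52 (SE 0.13), which was not called over all genes by limma (adjusted p = 0.830). After 14 days of dosing the mean was 13.36 in metformin hearts and 13.53 in vehicle hearts, so that the day 3 mean was the highest of the 3 metformin days. Tubb4b-ps2, a processed copy of the gene whose probes may take up Tubb4b transcript, differed by 0.70 (SE 0.18, adjusted p = 0.450), and the 2 features are not independent.

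Adamts12 encodes a secreted metalloprotease of the ADAMTS family, which cuts extracellular matrix proteins. In metformin day 1 hearts its level was 10.23, 10.42, 10.48 and 10.44, and in day 3 hearts 9.44, 9.75, 9.75 and 9.47. Every day 3 heart lay below every day 1 heart. The decrease was -0.79 (SE 0.13, 95% confidence interval -1.06 to -0.52), a 1.73-fold fall with an adjusted p of 0.032 by limma. Vehicle hearts had 10.15, 9.99, 9.78 and 10.06 on day 1 and 9.71, 10.29, 9.75 and 9.73 on day 3, with overlapping groups and a difference of -0.12 (SE 0.13, adjusted p = 1.00). The difference between the arms was -0.67 (SE 0.18, adjusted p = 0.831 by limma). On day 14 the mean was 9.07 in both arms, below the vehicle means of 9.99 on day 1 and 9.87 on day 3, a step that was not tested here. Without any 1 of the 8 metformin hearts neither gene was called, with adjusted p values between 0.0523 and 0.163 for Tubb4b and between 0.0539 and 0.254 for Adamts12, while the differences stayed between 0.52 and 0.63 and between -0.85 and -0.74. Over 19 alternative settings Tubb4b was called in 7 and Adamts12 in 8.

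**Figure D1:**
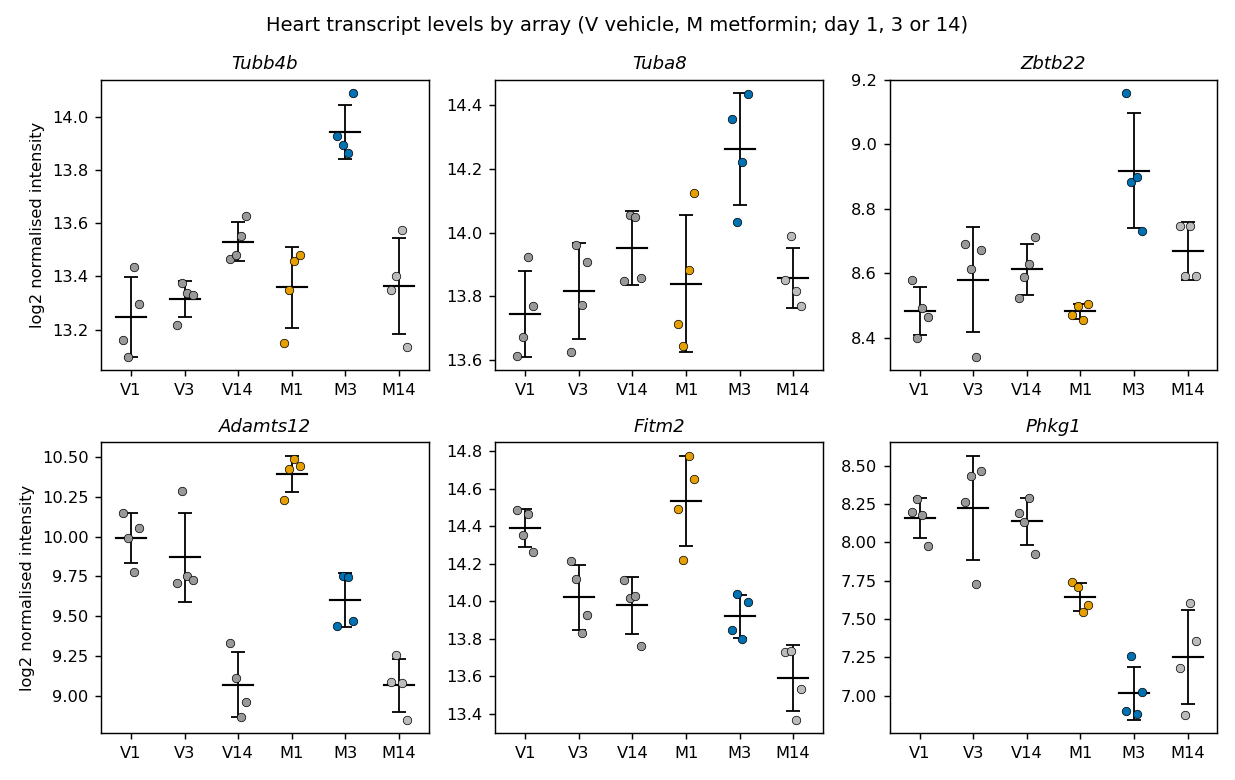
Log2 normalised intensity of 6 genes on each array of the 6 groups (V vehicle, M metformin, followed by the day). Points are single hearts, the horizontal line is the group mean and the bars are 1 SD (n = 4). Tubb4b lay between 13.86 and 14.09 in metformin day 3 hearts and at 13.48 or below in metformin day 1 hearts, and Adamts12 had a mean of 9.07 in both arms on day 14.

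The sequence just upstream of both called genes is shown because they are the genes on which the comparison turns. The 250 bases before the annotated start are from RefSeq on the rat assembly GRCr8, Tubb4b at chr3:28438456-28438705 on the minus strand and Adamts12 at chr2:61759737-61759986 on the plus strand, both written 5′ to 3′ along the gene. Capitals mark CCAAT boxes and the TATA box.
Tubb4b: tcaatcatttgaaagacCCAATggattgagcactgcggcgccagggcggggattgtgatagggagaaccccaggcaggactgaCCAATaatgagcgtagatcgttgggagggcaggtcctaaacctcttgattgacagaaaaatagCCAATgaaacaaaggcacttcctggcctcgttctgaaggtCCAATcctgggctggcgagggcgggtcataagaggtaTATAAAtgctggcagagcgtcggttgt
Adamts12: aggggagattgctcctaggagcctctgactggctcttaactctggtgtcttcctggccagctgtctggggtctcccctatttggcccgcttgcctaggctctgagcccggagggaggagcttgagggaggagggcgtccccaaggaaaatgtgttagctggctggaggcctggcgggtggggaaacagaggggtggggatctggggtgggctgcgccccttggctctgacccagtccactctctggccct
Short motifs were searched on both strands. The Tubb4b window held 4 copies of CCAAT, 2 GC boxes (GGGCGG) and 1 TATA box (TATAAA), and no E-box (CACGTG) or D-box (TTATGTAA), the last 2 being elements read by clock proteins. Among 33469 rat windows of the same length, 34% held a CCAAT, 0.565% held 4 or more, 30.5% a GC box and 12.9% a TATA box. None of these motifs occurred in the Adamts12 window. A CCAAT was present upstream of 9 of the 13 tubulin genes considered next, and a GC box upstream of 9. Tuba8 and Tuba4a, the tubulins beside Tubb4b that were higher at an unadjusted p under 0.05, held no CCAAT. Whether these motifs bear on the differences was not tested.

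Tubulin genes lay mostly above 0, with Tubb4b alone past the test. Alpha and beta tubulins pair into the dimers of the microtubule, and gamma tubulin nucleates it. Of 13 tested members 10 lay above 0, with a median of 0.20 against -0.0075 over all genes, 1 rose past the test (Tubb4b) and 3 were higher at an unadjusted p under 0.05, a share to be read against 2.9% of all genes. The others were Tuba8, an alpha-tubulin abundant in striated muscle, and Tuba4a, an alpha-tubulin. The 3 include Tubb4b, called in these same hearts. The list was chosen with earlier results of these data known, so the share is a description. Tuba8 was 13.71, 13.64, 13.88 and 14.12 on day 1 and 14.36, 14.03, 14.22 and 14.44 on day 3 of metformin. Only the lowest day 3 heart fell within the range of the day 1 hearts. Its difference was 0.42 (SE 0.11, adjusted p = 0.450 by limma) against 0.07 in vehicle hearts. Tuba4a differed by 0.25 (SE 0.11, adjusted p = 0.773). The abundant alpha tubulins Tuba1a, Tuba1b and Tuba1c differed by 0.12, 0.20 and 0.22, and Tubb5 by 0.32 (SE 0.26), each with overlapping groups. Tubb4a, Tubb2a and Tubb6 lay at -0.10, -0.06 and -0.01. The median over the tubulins was -0.03 in vehicle hearts, and across leave-one-out and other alternatives the metformin median stayed between 0.11 and 0.25, with 0.11 without metformin day 1 replicate 1 and 0.12 without day 3 replicate 3. Tubulin genes are similar in sequence, so that probes of one may take up transcript of another, and their differences are not independent.

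**Figure D2:**
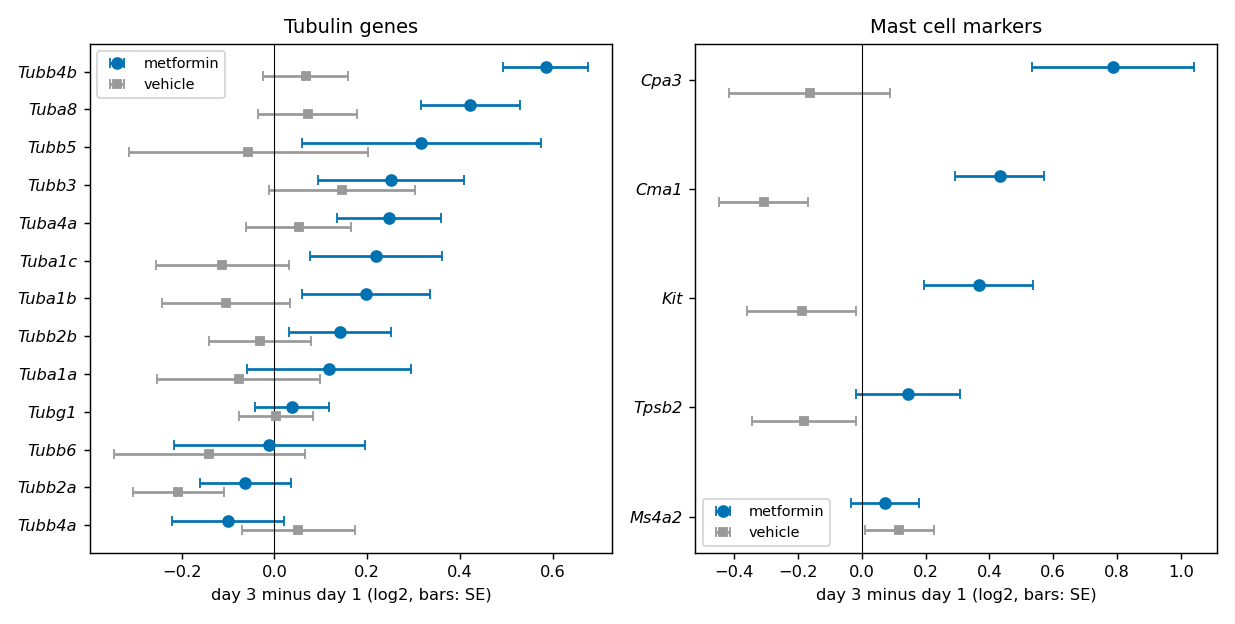
Day 3 minus day 1 (log2) for tubulin genes (left) and mast cell markers (right), in metformin hearts (circles) and vehicle hearts (squares), with bars of 1 SE from the fit (n = 4 per group and day). Tubb4b at 0.59 and Tuba8 at 0.42 lead the tubulins, and Cpa3 at 0.79 leads the mast cell markers, while the vehicle values of those 3 genes lie between -0.16 and 0.07.

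Among the other genes with the smallest p on the higher side, none passed the test (adjusted p between 0.141 and 0.450 by limma), and in all 10 named on that side, Tubb4b included, the day 3 hearts lay above every day 1 heart. The named genes of each direction were picked for a small p in these hearts, so their separation is a description. Zbtb22, a zinc finger protein with a BTB domain, was 8.47, 8.50, 8.46 and 8.51 on day 1 and 9.16, 8.88, 8.90 and 8.73 on day 3. The day 1 hearts were nearly identical and the day 3 hearts all higher, by 0.44 (SE 0.08). Atp6v1d, a subunit of the proton pump that acidifies lysosomes, was 11.10, 11.24, 11.06 and 11.06 on day 1 and 11.51, 11.43, 11.55 and 11.52 on day 3, a difference of 0.39 (SE 0.10). Timm50, part of the translocase that brings proteins across the inner mitochondrial membrane, differed by 0.38 (SE 0.09) in metformin and by 0.23 in vehicle hearts (vehicle SE 0.09). Gss, glutathione synthetase, differed by 0.31 (SE 0.08), Tstd3 by 0.54 (SE 0.12) and Rbm19, an RNA-binding protein of ribosome production, by 0.23 (SE 0.05). Isca2-ps1, Sec13-ps2 and Hmga1l1 are copies of other genes and differed by 0.55, 0.63 and 0.47. Their source genes Isca2, Sec13 and Hmga1 differed by 0.21, 0.01 and 0.18, and probes of a copy may take up transcript of its source.

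On the lower side Adamts12 alone passed the test, with adjusted p values up to 0.437 by limma for the rest of the 10 named genes. Fitm2, an endoplasmic reticulum protein needed for lipid droplet formation, was 14.49, 14.22, 14.78 and 14.65 on day 1 and 13.84, 14.04, 13.80 and 14.00 on day 3. The groups did not overlap, and the difference was -0.61 (SE 0.11, adjusted p = 0.129). Vehicle hearts showed a difference of -0.37 in the same direction (SE 0.11), and on day 14 the means were 13.59 in metformin and 13.98 in vehicle hearts. Ppat catalyses the committed step of purine synthesis. It was 11.74, 11.15, 11.22 and 11.37 on day 1 and 10.69, 10.96, 10.76 and 10.90 on day 3, a difference of -0.54 (SE 0.11), against 0.05 in vehicle hearts. Phkg1 encodes the catalytic subunit of muscle phosphorylase kinase, which switches on glycogen breakdown. Its level was 7.74, 7.71, 7.55 and 7.59 on day 1 and 6.90, 7.26, 6.88 and 7.02 on day 3, a difference of -0.63 (SE 0.15, adjusted p = 0.320). Vehicle hearts had means of 8.16 and 8.22, so both metformin groups lay below them. Cmya5, Asb2 and Filip1 encode myospryn, a muscle ubiquitin ligase adaptor and a filamin-binding protein, and differed by -0.48, -0.40 and -0.43. Adamtsl4, a matrix protein that binds fibrillin, differed by -0.39, and Akirin2, a nuclear protein that helps bring proteasomes into the nucleus, by -0.37. Or8b53, an olfactory receptor gene, differed by -1.18, but its day 1 mean of 4.69 lay at the middle of the array, where many features carry little signal.

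Vehicle hearts gave a separate view of the same interval, since none of their arrays enter the metformin difference. From day 1 to day 3 of vehicle, limma called 0 of 16031 genes (0%), with 699 at an unadjusted p under 0.05, or 4.36%, and a smallest adjusted p of 0.375. Over all genes the metformin and vehicle differences correlated weakly, with r = 0.0716 across genes, which are not independent, and 53.3% of genes had the same sign. Of the 10 genes named on the higher side 8 were also above 0 in vehicle hearts, and of the 10 on the lower side 7 were below 0 there, with vehicle differences no larger than 0.23 and -0.37. At an unadjusted p under 0.05 in both arms, 49 genes agreed in sign and 33 did not.

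**Figure D3:**
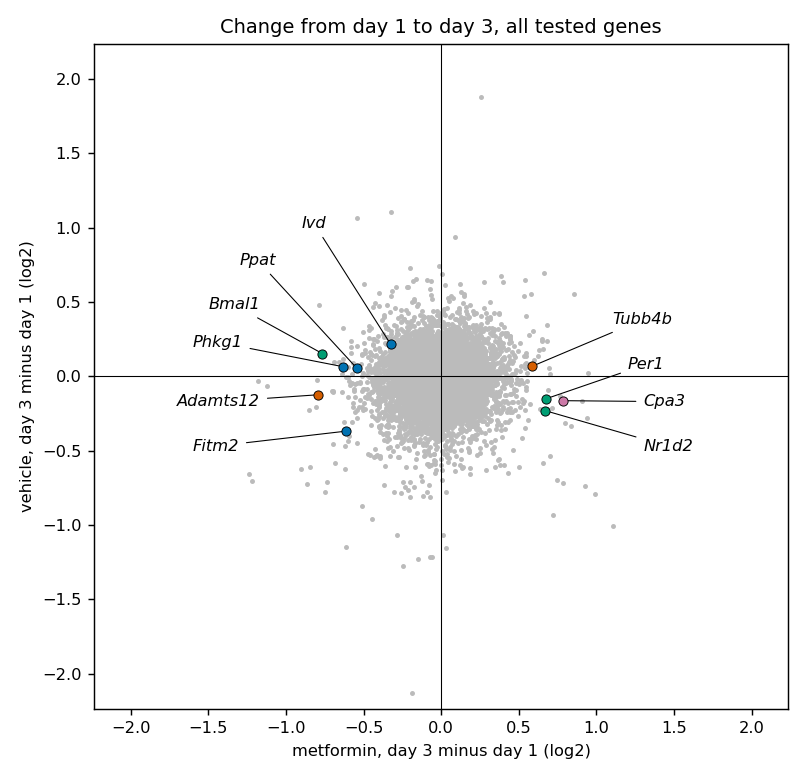
Difference between day 3 and day 1 (log2) of each of 16031 genes in metformin hearts (horizontal) and vehicle hearts (vertical), 1 point per gene. Tubb4b (0.59, 0.07) and Adamts12 (-0.79, -0.12) lie close to the horizontal axis, and the cloud is nearly round (r = 0.0716).

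The difference between the metformin and vehicle time courses was tested directly as an interaction. Limma called 0 of 16031 genes (0%), with 757 at an unadjusted p under 0.05, or 4.72%, and a smallest adjusted p of 0.806, so a time course that differed between arms was not shown for any single gene. Ivd, isovaleryl-CoA dehydrogenase of leucine breakdown, had one of the smallest p values. It was 13.33, 13.29, 13.48 and 13.39 on day 1 and 13.15, 13.02, 12.90 and 13.13 on day 3 of metformin, and 13.71, 13.40, 13.31 and 13.41 against 13.62, 13.69, 13.58 and 13.80 in vehicle hearts. The metformin groups did not overlap and lay lower on day 3 (-0.33, SE 0.09), while vehicle hearts lay higher (0.22). Map3k20, a stress-activated kinase, Zfp106, an RNA-binding zinc finger protein needed by motor nerves and muscle in mice, and Cds2, a CDP-diacylglycerol synthase, had the same pattern, with metformin differences of -0.28, -0.23 and -0.25 and vehicle differences of 0.25, 0.19 and 0.15. Pm20d1, an enzyme that makes N-acyl amino acids, differed by -0.32 and 0.54. Resf1, a regulator of retroelements, had the opposite pattern at 0.39 and -0.41, as did Mir196b, at 0.40 and -0.59, whose level of 4.37 to 5.56 in these hearts was near the middle of the array. Pcdhb3, a protocadherin, owed its place to the vehicle hearts (-0.62) more than to metformin (0.19).

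Activators of the circadian clock lay below 0, as did the repressor Nfil3, and most of its repressors and outputs above 0, with none past the adjusted threshold. Bmal1 and its partners Clock and Npas2 activate the Per, Cry and Nr1d genes, whose products then repress the activators, so that both arms peak at different hours. The list tested held 4 activators and Nfil3, which represses the genes that Dbp activates, and all 5 lay below 0 (median -0.22), with 1 of them at an unadjusted p under 0.05, against 3.44% of all genes on the lower side. Bmal1 was 9.77, 9.69, 10.20 and 9.53 on day 1 and 9.26, 9.59, 8.27 and 9.02 on day 3 of metformin. The day 3 hearts were lower, with replicate 3 lowest by far, and replicate 2 reaching into the day 1 range. The difference was -0.77 (SE 0.25, adjusted p = 0.567 by limma), against 0.15 in vehicle hearts. Npas2 differed by -0.29, Nfil3 by -0.22, Rora by -0.15 and Clock by -0.14.

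Of 14 tested clock repressors and output genes 11 lay above 0, with a median of 0.18, and 4 were higher at an unadjusted p under 0.05, against 2.9% of all genes. These were Per1, Per3, Nr1d2 and Dbp, of which Dbp and the Per genes are direct clock targets and Nr1d2 encodes a repressor of Bmal1. Dbp was 7.10, 7.05, 6.99 and 7.14 on day 1 and 7.37, 7.19, 8.52 and 7.44 on day 3, a difference of 0.56 (SE 0.24). Replicate 3 was more than 1 log2 unit above the other day 3 hearts. Nr1d2 was 10.68, 10.99, 10.37 and 10.90 on day 1 and 11.36, 10.79, 12.19 and 11.28 on day 3 (difference 0.67, SE 0.29). Per1, which is also induced by glucocorticoids, was 8.29, 7.46, 7.51 and 7.45 on day 1 and 8.30, 8.41, 8.80 and 7.91 on day 3 (difference 0.67, SE 0.21, adjusted p = 0.567). Vehicle hearts had Per1 means of 8.48 and 8.33, so day 1 of metformin was the low group. Nr1d1, at 7.21 to 8.55 on day 1 and 7.80 to 9.91 on day 3, and Per2, at 6.23 to 6.72 and 6.41 to 6.85, overlapped between days. Without metformin day 3 replicate 3 the median of the repressors and outputs was 0.03, 1 member stayed at an unadjusted p under 0.05, and the activators with Nfil3 had a median of -0.12. In vehicle hearts the medians were 0.12 for the activators with Nfil3 and -0.12 for repressors and outputs. The hour at which each heart was taken is not given, and its part in these values was not tested. An E-box lay in the 250 upstream bases of 5 of the 12 repressor and output genes with a RefSeq window, where a gene with several windows (Nr1d1) was counted if any held one. It lay in none of the windows of the 4 activators and Nfil3, against 5.59% of all windows. The 5 genes with an E-box were Nr1d1, Ciart, Bhlhe40, Bhlhe41 and Tef. Per1, Per3, Nr1d2 and Dbp, the genes higher at an unadjusted p under 0.05, held none in their windows.

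**Figure D4:**
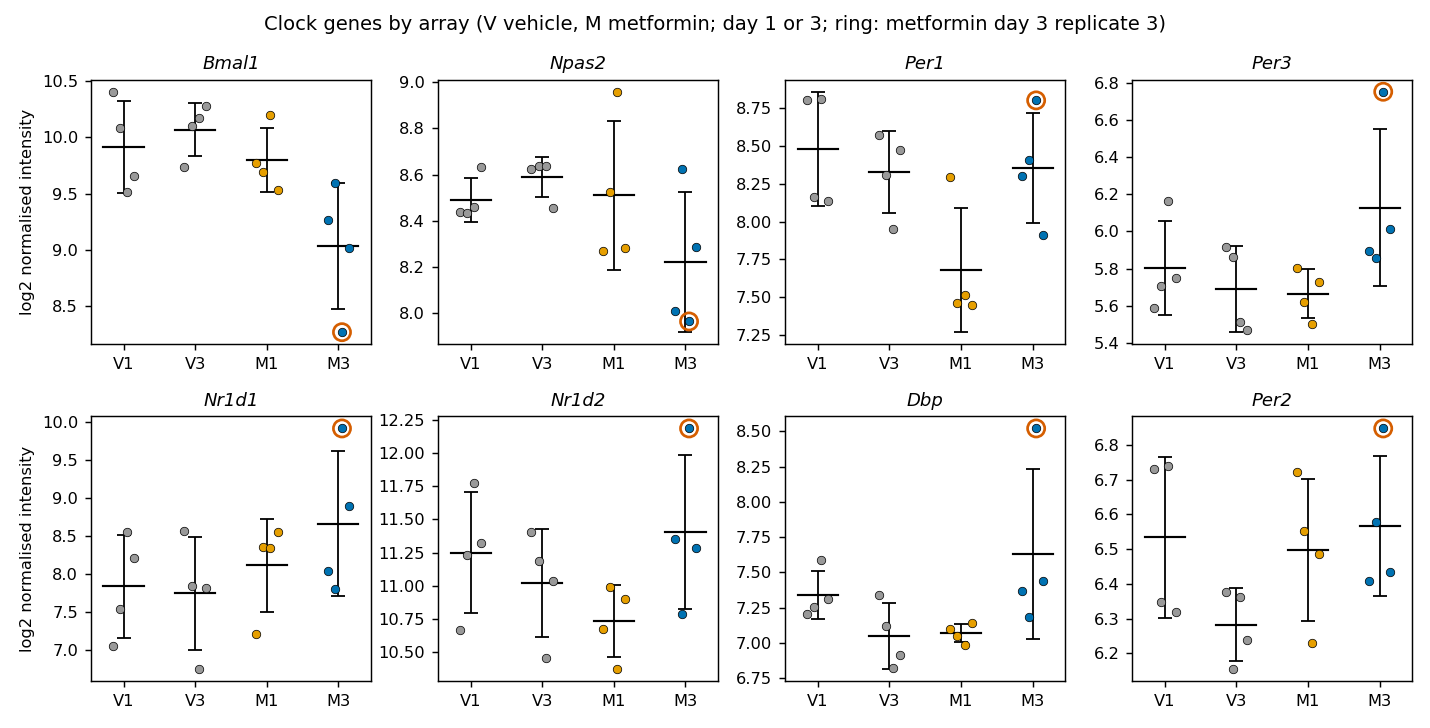
Log2 normalised intensity of 8 clock genes in single vehicle (V) and metformin (M) hearts on days 1 and 3, with group means and 1 SD bars (n = 4). The ring marks metformin day 3 replicate 3, which had the lowest Bmal1 (8.27) and the highest Dbp (8.52) and Nr1d1 (9.91) of the metformin hearts shown.

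Mast cell markers lay above 0, with none past the adjusted threshold. Mast cells are resident immune cells that store proteases in granules and lie around cardiac vessels and in the epicardium. All 5 tested markers of the 8 listed lay above 0, with a median of 0.37, and 3 were higher at an unadjusted p under 0.05, against 2.9% of all genes. Cpa3, the mast cell carboxypeptidase, was 7.00, 7.42, 6.78 and 6.90 on day 1 and 7.57, 7.70, 7.91 and 8.07 on day 3. The groups did not overlap, and the difference was 0.79 (SE 0.25, adjusted p = 0.567 by limma). Cma1, mast cell chymase, differed by 0.43 (SE 0.14) and Kit, the stem cell factor receptor, by 0.37 (SE 0.17), while Tpsb2, a tryptase, and Ms4a2, a chain of the IgE receptor, differed by 0.14 and 0.07. Cma1 and Ms4a2 lay near the middle of the array, at 4.48 to 5.44 and 4.73 to 4.97. In vehicle hearts the median was -0.18, and vehicle day 1 replicate 4 had the highest Cpa3 of all 16 hearts at 8.36. Without metformin day 3 replicate 3 the metformin median was 0.19. In tissue samples such as these, more cells of a type and more RNA per cell cannot be told apart.

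Mitochondrial ribosomal proteins, which build the ribosome that makes respiratory chain subunits inside mitochondria, lay mostly above 0 by small amounts, with none past the adjusted threshold. Of 27 mitochondrial ribosomal proteins tested 24 lay above 0, against 47.1% of all genes, with a median of 0.13, and 3 were higher at an unadjusted p under 0.05, against 2.9% of all genes (1 without metformin day 3 replicate 3). Mrpl3 was 9.16, 9.24, 9.13 and 9.15 on day 1 and 9.47, 9.35, 9.38 and 9.38 on day 3, with no overlap, and differed by 0.22 (SE 0.09, adjusted p = 0.722). Mrpl4 differed by 0.24 and Mrpl15 by 0.21. The median in vehicle hearts was 0.02. The score of the list, the mean over members of the deviation from each gene's mean over all 24 arrays, lay between -0.13 and 0.02 on day 1 and between 0.04 and 0.07 on day 3 of metformin, but vehicle day 3 hearts ranged from -0.14 to 0.15. Of the 34 tested subunits of complex I, 21 lay above 0 with a median of 0.02, and 28 after median centring of the arrays, which took all genes from 47.1% to 61.9% above 0. Ndufs7 and Ndufs8 were at 0.21 and 0.17 (adjusted p = 0.722 and 0.773). Sterol synthesis had a median of 0.10 with 3 of 19 genes higher at an unadjusted p under 0.05, against 2.9% of all genes. Without metformin day 1 replicate 1 it was 1 gene, and without day 3 replicate 2 the median was 0.05. These were Cyp51 at 0.29, Hsd17b7 at 0.31 and Fdft1 at 0.26, enzymes of the path to cholesterol, and the vehicle median was also 0.10.

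Genes of branched-chain amino acid breakdown and PPAR-alpha targets lay mostly a little below 0, while most other lists of fuel use were split, with no gene past the adjusted threshold. Of 22 genes of branched-chain amino acid breakdown 16 lay below 0 (median -0.07) and 3 were lower at an unadjusted p under 0.05, against 3.44% of all genes, whereas 18 of the 22 lay above 0 in vehicle hearts (median 0.11), where 49.5% of all genes did. Beside Ivd these were Mccc2, a subunit of the leucine enzyme methylcrotonyl-CoA carboxylase, at -0.35 (SE 0.14), and Acad8, which acts in valine breakdown, at -0.18 (SE 0.08). Bcat2, the mitochondrial aminotransferase of the first step, was 9.31, 9.55, 9.44 and 9.23 on day 1 and 9.20, 9.15, 9.18 and 9.10 on day 3, a difference of -0.23 (SE 0.12, adjusted p = 0.812), and 0.27 in vehicle hearts. The metformin groups did not overlap, although the gap was small. Of 27 PPAR-alpha targets, genes of fatty acid handling, 21 lay below 0. At an unadjusted p under 0.05, 5 were lower, against 3.44% of all genes. Vehicle hearts were alike, with 23 of the 27 below 0 (median -0.05 against -0.06 in metformin hearts). There 4 were lower at that p, against 4.36% of all genes in either direction. Median centring of the arrays took all genes in metformin hearts from 47.1% to 61.9% above 0. After it 16 of the 27 PPAR-alpha targets lay below 0 and 2 were lower. Of the 22 genes of branched-chain amino acid breakdown 13 then lay below 0. Among the PPAR-alpha targets the uncoupling proteins Ucp2 and Ucp3 differed by -0.43 and -0.37 and the carnitine transferase Cpt1a by -0.37. Vehicle hearts had -0.28, -0.73 and -0.43 in those 3 genes. Of 21 genes of fatty acid oxidation 10 lay above 0 and 11 below. Of 27 genes of pyruvate dehydrogenase and the TCA cycle 17 lay above 0 (median 0.04), of 23 genes of glycolysis and glucose uptake 13, and of 5 genes of ketone body oxidation 1. Pdk4, the pyruvate dehydrogenase kinase induced by fasting, differed by -0.86 with an SE of 0.54, since single hearts ranged from 13.90 to 14.87 on day 1 and from 12.45 to 14.79 on day 3. Pdp2, the phosphatase that reactivates pyruvate dehydrogenase, was 8.44, 8.40, 8.36 and 8.27 on day 1 and 8.16, 7.62, 7.77 and 7.36 on day 3 (difference -0.64, SE 0.21). Those groups did not overlap, and the vehicle difference was -0.11. Of the 15 glycogen enzymes 9 lay above 0, and only Phkg1 was lower at an unadjusted p under 0.05. The other phosphorylase kinase subunits Phka1 and Phkb differed by -0.12 and -0.08.

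Stress and signalling genes showed few single differences. Of 22 targets of ATF4, the transcription factor of the integrated stress response, 16 lay below 0 (median -0.06) and 4 were lower at an unadjusted p under 0.05, against 3.44% of all genes. They were Slc3a2, an amino acid transporter subunit, at -0.25, Trib3 at -0.29, Chac1 at -0.45 and Vldlr, which is also a PPAR-alpha target, at -0.18. Of 23 genes of muscle atrophy and autophagy 19 lay below 0 (median -0.07), led by Map1lc3b (-0.16), Bnip3 (-0.31) and Ctsl (-0.20). After median centring of the arrays 14 of those 23 and 14 of the 22 ATF4 targets lay below 0, where 61.9% of all genes lay above 0. The NRF2 targets Nqo1 and Txnrd1 differed by -0.31 and -0.20. Of 21 tested NRF2 targets 15 lay below 0 (median -0.07), and 2 were lower at an unadjusted p under 0.05, against 3.44% of all genes. After median centring 14 of the 21 lay below 0 and 0 were at that p. Stat3 differed by -0.35 (SE 0.11, adjusted p = 0.574). Nfkbia, the inhibitor of NF-kB, was 7.78, 8.13, 8.38 and 7.94 on day 1 and 9.76, 8.57, 9.62 and 7.98 on day 3, so that 2 hearts were high and 1 was within the day 1 range (difference 0.92, SE 0.36). Zbtb16, a glucocorticoid-induced transcription factor, was 9.25, 9.90, 9.59 and 10.73 on day 1 and 8.62, 9.78, 9.23 and 9.03 on day 3, a difference of -0.70 with an SE of 0.47, and the vehicle means were 7.84 and 7.75. Of 23 tested genes of the glucocorticoid response 13 lay above 0 and 10 below (median 0.06). At an unadjusted p under 0.05, 2 of them were higher, against 2.9% of all genes, and 0 lower. Nr4a1, an immediate-early orphan receptor, differed by -0.18 with an SE of 0.53 and ranged from 6.98 to 8.90 on day 1 and from 6.63 to 8.88 on day 3. None of the 21 tested AMPK and PGC-1 genes lay past the adjusted threshold. Their median was 0.01, Prkaa2, the main catalytic subunit of heart AMPK, differed by 0.05 (SE 0.08), and Sirt3, a mitochondrial deacetylase, by -0.18 (adjusted p = 0.667). Of the 7 tested genes of metformin and organic cation transport none was at an unadjusted p under 0.05, and Slc22a3 differed by 0.06 (SE 0.15).

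As with the mast cell markers, no marker of another cell type lay past the adjusted threshold. Fibroblast markers had 9 of 10 members below 0 with a median of -0.17, and collagens and matrix genes 21 of 25 with a median of -0.09, none of them at an unadjusted p under 0.05. Both rested on metformin day 3 replicate 1: without it the medians were 0.02 and 0.07, with 4 of 10 and 6 of 25 members below 0. Across all alternatives they ran from -0.30 to 0.02 and from -0.21 to 0.07. The collagen score of metformin day 3 hearts ran from -0.42 in replicate 1 to 0.39 in replicate 3, and that of day 1 hearts from 0.03 to 0.42. Cell cycle genes had a median of -0.13, with Ccnb1 at -0.33, but of 0.04 without metformin day 3 replicate 1. Cardiac stress and fetal genes had a median of -0.13, led by Fhl1, a muscle stretch sensor (-0.45, SE 0.16), and Edn1, endothelin (-0.34, SE 0.15). That median was -0.01 without metformin day 3 replicate 3, -0.07 without day 1 replicate 1 and -0.03 with array weights. Erythroid markers had a median of -0.08 and skeletal muscle markers of -0.07 in metformin hearts, and leaving out single hearts moved them to between -0.17 and 0.11 and between -0.14 and 0.01. In vehicle hearts they stood at -0.73 and -0.43, where day 1 replicate 4 was high in skeletal muscle markers (score 1.85 against -0.30 to -0.03 in the other 7). The erythroid score of vehicle hearts ran from 0.27 to 1.31 on day 1 and from -0.27 to -0.04 on day 3, apart from day 3 replicate 2 at 1.37.

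**Figure D5:**
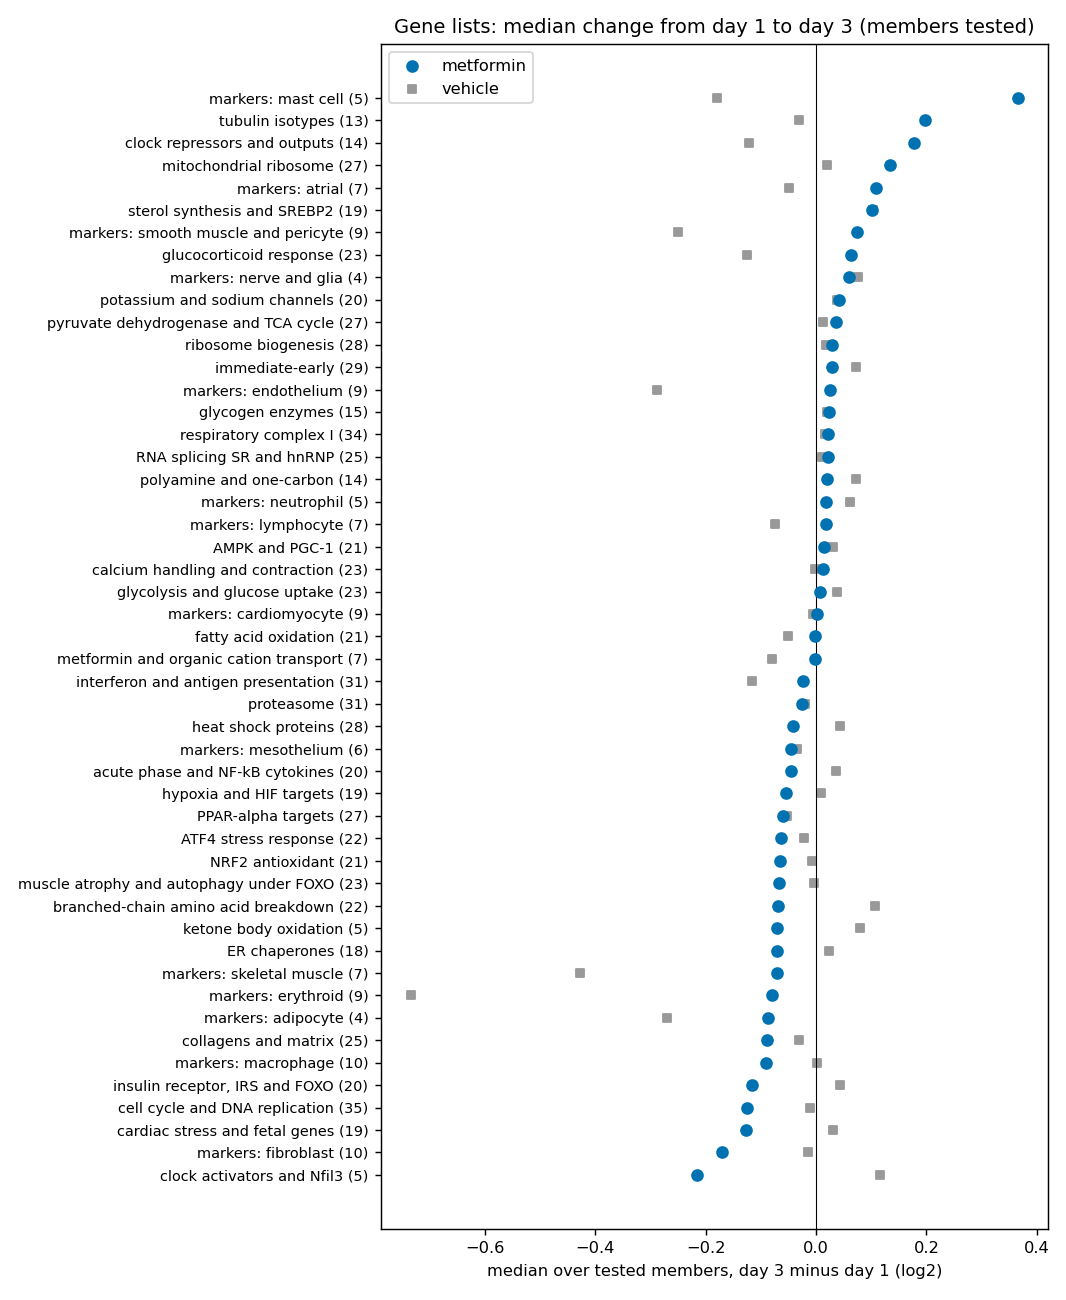
Median difference between day 3 and day 1 (log2) over the tested members of each gene list, in metformin hearts (circles) and vehicle hearts (squares), with the number of members in brackets. Mast cell markers (0.37), tubulins (0.20) and clock repressors and outputs (0.18) lie farthest to the right for metformin, and clock activators with Nfil3 (-0.22) farthest to the left.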

How the data were processed

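Labelled cDNA from rat left ventricular tissue was read on 1-colour Affymetrix arrays, per the labels' protocols. The authors deposited linear intensities, normalised with RMA per the submitters' processing notes (its software: not given in the sources used here). Log2 values had been assumed in the plan of the tests, so log2 of the deposited intensities was computed before fitting, with no other change of plan. The highest intensity per array lay at 999971 to 999974 on the 16 arrays of days 1 and 3, beyond a scanner's range, so fold changes may be stretched and values near that ceiling are compressed. Precision is limited by the number of arrays.

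Symbols came from the platform annotation (23446 of 68842 clusters with exactly 1) and were updated through RefSeq GRCr8. The cluster with the highest mean stood for a gene, and 16031 of 22037 genes lay above the array median on at least 4 arrays and were tested. One mean for each of the 6 groups of 4, taken from the sample titles, was fitted to all 24 arrays (limma 3.58.1, R 4.3.3, statmod 1.5.0), with Benjamini-Hochberg adjustment over all genes. Contrasts were metformin day 3 minus day 1, the same for vehicle, and their difference. The procedure was tested on simulated data.

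Named genes were called genes whose groups did not overlap or, with fewer than 5 in a direction, the 10 with the smallest p, then 8 for the difference, up to 4 members of each of 49 lists (fewer are named here) and Bmal1, Nr1d1, Dbp, Per2, Pdk4, Zbtb16, Nr4a1, Phkg1 and Bcat2. Placeholder names were left out. Hmga1, Isca2, Sec13, Mb, Ms4a2, Nfil3, Nppa, Prkaa2, Tubb4b-ps2 and the tubulins beyond the first 4 were named after their values were seen. The members, lists and tests were chosen with earlier results of these data known.

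Alternatives were a fit to the compared arrays alone, a replicate block, other normalizations between arrays, other filters, the mean over clusters, trended robust moderation, array weights, an erythroid covariate and each array left out. Leaving out 2 vehicle arrays together and using all transcript clusters were added after seeing the data.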

Additional observations from a re-analysis of the deposited data

Results flagged for a closer look

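Over 85 genes in both metformin groups, 5 values from 3 hearts, all of metformin day 1, lay far from the other 3 of their group, by the gap to the nearest heart relative to the range of the group. That is 2.94% of the 170 groups tested. Most of the genes were picked for a small p in these hearts, so this share cannot be set against the 1 in 20 of the rule. No cause was tested. Per1 was highest in replicate 1, at 8.293 against 7.447 to 7.514. Nr1d1 was lowest in the same heart, at 7.208 against 8.335 to 8.555. Kit was highest in replicate 2, at 8.045 against 7.512 to 7.596. Replicate 3 had the highest Slc3a2, at 7.852 against 7.595 to 7.634, and the lowest Mir196b, at 4.373 against 4.834 to 4.926.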

How the results depend on the processing

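The count of genes called between day 1 and day 3 of metformin, 1 higher and 1 lower, depended on the setting. It was 0 higher and 0 lower in a fit to the 8 arrays of the comparison alone (smallest adjusted p 0.307 by limma, 1048 genes at an unadjusted p under 0.05), with each array centred on its median (0.248, 782 genes) and with no filter on low values (0.055, 1277 genes). A second quantile normalization gave 0 higher and 1 lower (Adamts12), array weights 1 higher and 2 lower (adding Fitm2), and all transcript clusters 1 higher, a cluster without a symbol, and 0 lower. Leaving out 1 metformin heart gave 0 to 1 higher and 0 to 1 lower. Without metformin day 1 replicate 2 Fitm2 was called instead (-0.72, adjusted p = 0.031), with a gene that has a placeholder name. Over 19 alternatives Tubb4b was called in 7, with differences of 0.52 to 0.63 and adjusted p values of 0.00881 to 0.307, and Adamts12 in 8, with -0.85 to -0.74 and the same range of p. The cause of the lost calls was not tested, except that leaving out an array also leaves fewer samples.

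In vehicle hearts 0 to 1 genes were called lower on leaving out 1 array, the 1 being without vehicle day 3 replicate 3. The difference of the time effects had 0 calls in each alternative run. Per2 ran from -0.025 to 0.1435 on leaving out 1 array, below 0 without metformin day 1 replicate 3 (-0.0208) or day 3 replicate 3 (-0.025). Nr4a1 ran from -0.6642 to 0.2604, above 0 without metformin day 1 replicate 1 (0.2604), day 3 replicate 3 (0.0848) or day 3 replicate 4 (0.0185). The mast cell median was 0.187 without metformin day 3 replicate 3.

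Same-numbered hearts of metformin days 1 and 3 came from different animals and correlated at 0.159, 0.337, -0.055 and 0.063 after removal of group means. Hearts with different numbers correlated at -0.248 to 0.121. So few values cannot decide whether hearts of one number shared a step of handling, which the labels do not give. With replicate number as a block, 1 gene was called higher and 1 lower, the same as without the block. Values near the middle of an array and at the ceiling of the scale limit what could be seen.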

Other observations

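Across all 39621 transcript clusters above the filter, with or without a symbol, limma called 1 cluster between day 1 and day 3 of metformin, higher on day 3 with an adjusted p of 0.0464, and it has no gene symbol in the platform annotation used. Neither Tubb4b nor Adamts12 passed the adjustment over that larger number of features. Nppa was near 11.8 in 2 hearts, metformin day 3 replicate 3 at 11.83 and vehicle day 3 replicate 4 at 11.79, against 14.1 or more in the other 14 hearts of days 1 and 3, and the median difference of the atrial markers was 0.11 in metformin hearts, 0.15 without day 3 replicate 3 and -0.05 without day 3 replicate 4.

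Ion channel and calcium genes gave few differences. Kcnj2, the inward rectifier potassium channel of ventricular muscle, differed by -0.33 between day 3 and day 1 of metformin and Kcnip2, a partner of the transient outward channel, by 0.32, with adjusted p values above 0.7 by limma. The Kcnip2 value is that of its cluster with the highest mean, 17.74, and its other clusters differed by 0.16 to 0.30. Casq1, calsequestrin of skeletal muscle, differed by -0.45 in metformin and by -0.96 in vehicle hearts. Dnajb11, an endoplasmic reticulum cochaperone, differed by -0.20, and Bysl, a ribosome assembly factor, by 0.24.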
